A study of Mus musculus with 2 samples.

Results

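Dominant retained-intron transcripts are transcripts that the GENCODE M21 annotation of the mouse mm10 assembly types as retained intron and that held at least 50% of the length-scaled level of their gene in nuclei of stimulated macrophages. A transcript was counted as a member when its isoform percent (IsoPct, its share of the TPM of its gene) was at least 50 and its TPM (a level per length, scaled to a common total) was at least 2 in both libraries of the deposited alignment-based table. The rule found 93 transcripts, each from a different host gene, among 21848 annotated retained-intron transcripts of 9421 genes and 141767 transcripts in all. Of the hosts, 86 were protein-coding and 7 were noncoding genes. IsoPct and TPM chose the members, so both are given as descriptions with no test.

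The material was total RNA, depleted of ribosomal RNA, of the nuclei of C57BL/6J bone marrow-derived macrophages, primary phagocytes grown from mouse bone marrow. Both libraries belonged to 1 group, given Lipid A, the TLR4-activating moiety of lipopolysaccharide, at 100 ng/ml for 12 hours, washed and left for 12 hours, and given the same dose again for 20 minutes. The labels call the libraries biological replicates 1 and 2 with the same donor, call the fraction nucleoplasmic in one field and nucleus in another, and give neither age nor sex. Replicate 1 started from 1 µg of RNA and replicate 2 from 500 ng, so input and replicate cannot be told apart. The labels do not say whether separate animals were used, and there was no unstimulated or cytoplasmic library. Depth was 21954179 and 17739520 expected counts. All 10 macrophage marker genes reached 2 TPM in both libraries (23.4 to 1590 TPM), and none of the 23 neutrophil, lymphoid, stromal and erythroid markers did, with 1.73 TPM as their highest value. In bulk RNA, fewer cells with a transcript and less of it per cell cannot be told apart.

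Most introns are removed while or soon after a gene is transcribed, but some stay in polyadenylated RNA that is held in the nucleus, where it can be spliced later or degraded. Retained-intron models in an annotation are noncoding by type and are often partial: many were built from cDNA fragments that start or stop inside an intron. A retained-intron entry can therefore stand for a spliced and polyadenylated RNA that kept 1 intron, for RNA caught during splicing, or for a fragment that mostly overlaps ordinary exons. Genes for splicing factors and arginine- and serine-rich proteins are textbook examples of nuclear intron retention.

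The members that most clearly carry an intron are those whose exon spans a complete intron of a protein-coding transcript of the same gene. The 8 of these with the highest expected counts, among members that also held at least 50% of their gene in the other transcript table and leaving out Tmed7-202, whose counts would place it among them and whose sequence is not shown, are given by the splice sites that the member leaves uncut. Each 5′ site is given as the last 10 exonic bases and the first 10 intronic bases, with the intron's first GT in capitals. Each 3′ site is given as the last 20 intronic and the first 8 exonic bases, with the closing AG in capitals. Sequences are those of the M21 transcripts, written on the strand of the gene.
Rsrp1-204, 5′ site of the intron at chr4:134925433-134926734 (+): aaaggtggagGTaagtgcct
Rsrp1-204, 3′ site: aaaattctcttcctctttAGcattcaga
Pirb-202, 5′ site of the intron at chr7:3716891-3717117 (-): ctcatctcagGTaagtcccc
Pirb-202, 3′ site: agctgtcaccttccctctAGggctgtcc
Slc25a37-203, 5′ site of the intron at chr14:69247638-69249393 (-): ctagctaatgGTattttgaa
Slc25a37-203, 3′ site: ttctggagtttgttttgcAGgggtagct
Tap2-202, 5′ site of the intron at chr17:34212068-34212229 (+): catacggaggGTgaggtgac
Tap2-202, 3′ site: ctcacctctctcctgtccAGgtgatggc
Tmem132a-203, 5′ site of the intron at chr19:10859756-10860123 (-): ctctatcgagGTgagccgcc
Tmem132a-203, 3′ site: cagtcgctttctactcttAGgttcgttc
Ncl-202, 5′ site of the intron at chr1:86352634-86353125 (-): acttggagtgGTaagttaaa
Ncl-202, 3′ site: tgttatctttgtatttgcAGgtgaatca
Arglu1-204, 5′ site of the intron at chr8:8681468-8683747 (-): agccagagagGTaacgctcg
Arglu1-204, 3′ site: caacatgtcctcccctttAGgaggaaga
Ccdc59-202, 5′ site of the intron at chr10:105842849-105845349 (+): acacaggaagGTaagcacct
Ccdc59-202, 3′ site: atcttaatctatcttgcaAGttctgtga

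All 8 introns start with GT, end with AG and lie between coding exons. Compared letter by letter with the common mammalian 5′ site, CAG followed by GTAAGT, the Pirb site matched all 9 letters and the Rsrp1 site 8. The Ncl and Ccdc59 sites matched 7, the Tmem132a and Arglu1 sites 6, and the Slc25a37 and Tap2 sites 5. In the last 17 bases before the closing AG, pyrimidines made up 64.7% in Slc25a37 and 88.2% in Tap2, the lowest and highest of the 8. All of these values describe letters in the annotated sequence, with no measure of splicing.

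The level of the members was spread over more than 2 orders of magnitude on the TPM scale. The mean TPM of the 2 libraries had a median of 7.41 over the 93 members. It was 100 or more for 3 members, 10 or more for 35 and under 5 for 26. The host genes as a whole had a median mean TPM of 11.2, against 10.3 over the 9754 genes at TPM 2 or more in both libraries, and 53 of the 93 hosts lay above the latter value. Together the members took 1860 and 1989 TPM, which was 4.43% and 3.71% of the TPM of all retained-intron transcripts, and 0.532% and 0.498% of all expected counts in replicates 1 and 2.

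**Figure D1:**
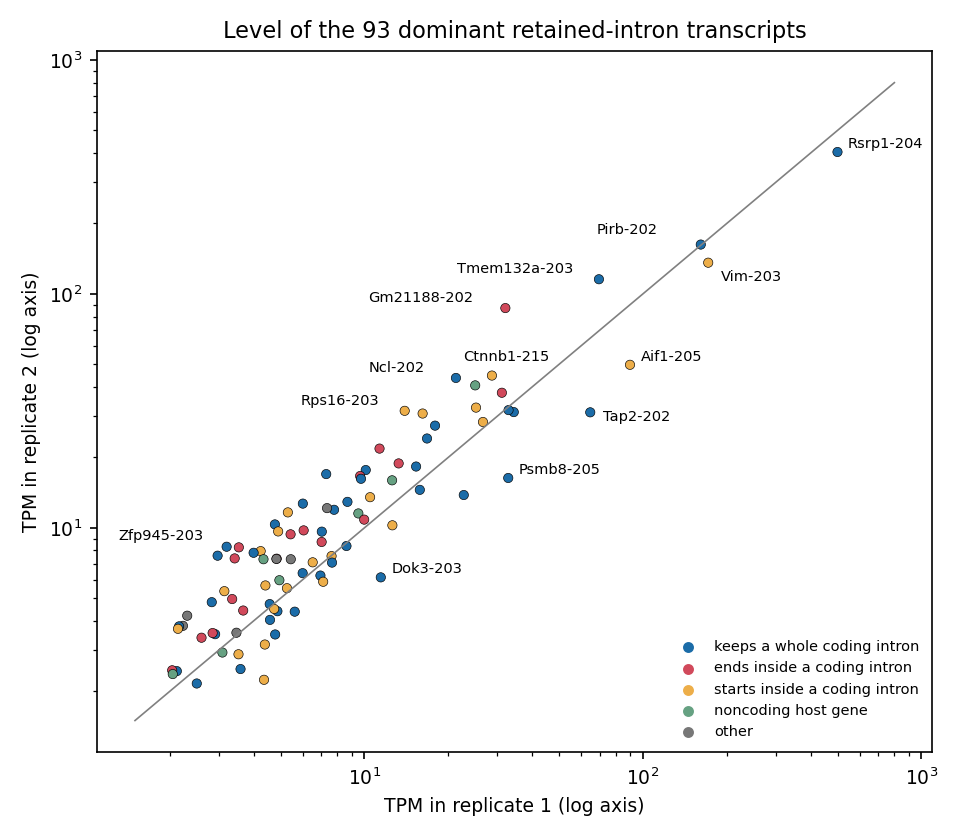
TPM of each of the 93 members in replicate 1 (x axis) and replicate 2 (y axis), both log axes, coloured by how the transcript relates to the introns of its coding gene model; the grey line marks equal values and 1700109H08Rik-205 is drawn with the class "other". Rsrp1-204 stands above all others in both libraries, and Tap2-202, Psmb8-205, Aif1-205 and Dok3-203 lie to the right of the line.

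Rsrp1-204 (ENSMUST00000148900.7), from the gene of a small arginine- and serine-rich protein, was by far the most abundant member. Its level was 499.8 and 404 TPM in replicates 1 and 2, on 42448 and 23445 expected counts, out of 116775 and 88383 counts of all members together. It held 59.6% and 69.2% of the TPM of its gene, while all protein-coding transcripts of Rsrp1 together held 1.81% and 0.94%. Its 4 exons span chr4:134923592-134927671 and keep the 1302-base intron shown above. Only 13 of its 3051 bases (0.43%) lie in no exon of another Rsrp1 transcript. Nearly all of the kept intron therefore also lies in other models, and the share of this member is uncertain.

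Pirb-202 (ENSMUST00000129493.7) came from the gene of an inhibitory immunoglobulin-like receptor of myeloid cells that binds MHC class I. It had 161 and 163 TPM on 13088.5 and 9001 counts. Its IsoPct of 58.5 and 59.1 was nearly the same in the 2 libraries. The model has 14 exons at chr7:3712537-3720382 and keeps a 227-base intron. Reads of the related Pira genes may be shared with it, so its level is uncertain.

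Vim-203 (ENSMUST00000148248.2), from the gene of the intermediate filament protein vimentin, had 172 and 136 TPM. It differs from the 2 members above in that it keeps no whole intron: this 535-base model at chr2:13579369-13582478 starts inside an intron of the coding transcript and then follows its exons. It held 53.2% and 58.0% of the TPM of Vim, but 16.7% and 17.7% of its expected counts.

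Tmem132a-203, from the gene of a single-pass membrane protein, had 69.5 and 116 TPM and held 96.8% and 97.2% of its gene. It is a single exon of 1371 bases that keeps 2 neighbouring introns of 368 and 412 bases at chr19:10859138-10860508, and its exon overlaps 225 bases of Slc15a3, a gene on the opposite strand. Aif1-205, from the gene of the actin-bundling protein Iba1 that is used to mark macrophages and microglia, had 89.9 and 49.8 TPM on only 673 and 249 counts. It is 462 bases long and has no base of its own: every base also lies in an exon of another Aif1 transcript.

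The further members with high levels came from genes of varied function. Gm21188-202, from a predicted gene, had 32.1 and 87.0 TPM. Tap2-202, from the gene of a subunit of the peptide transporter that loads MHC class I, had 64.7 and 31.2 TPM. Ctnnb1-215, from the β-catenin gene, had 28.7 and 44.8 TPM. It starts inside a coding intron, keeps no whole one, and held 29.2% and 42.0% of the expected counts of its gene. In the other transcript table it held 40.2% and 52.8% of its gene. Gm21188-202 ends inside a coding intron and keeps no whole one either.

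Ppp1r10-204 belongs to the gene of PNUTS, a nuclear regulatory subunit of protein phosphatase 1, and had 31.2 and 37.8 TPM. Ncl-202, from the gene of the nucleolar protein nucleolin, had 21.3 and 43.7 TPM and keeps 2 introns of 492 and 190 bases. Slc25a37-203, from the gene of the mitochondrial iron importer mitoferrin, had 32.9 and 31.9 TPM on 5631 and 3724 counts, the third highest counts among the members. Gramd1a-205, from the gene of a sterol transfer protein of the endoplasmic reticulum, had 34.4 and 31.2 TPM. The noncoding BE692007-202 had 24.99 and 40.6 TPM, Anp32a-209 (from the gene of an acidic nuclear phosphoprotein) 25.2 and 32.6 TPM, and Rfc2-204 (from the gene of a subunit of replication factor C, the clamp loader of DNA replication) 26.6 and 28.3 TPM. Anp32a-209 and Rfc2-204 start inside a coding intron and Ppp1r10-204 ends inside one, and none of them keeps a whole one. Of the expected counts of its gene, Anp32a-209 held 37.2% and 41.8%, and Rfc2-204 34.6% and 37.5%. In the other transcript table they held 48.6% and 54.8%, and 41.8% and 44.6%, of their genes.

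Being dominant was rare for this type of transcript. Members were 0.426% of all retained-intron transcripts (6.61% of all protein-coding transcripts met the same thresholds) and 2.5% of the 3716 that reached 2 TPM in both libraries. The same thresholds were met by 42.4% of protein-coding transcripts at 2 TPM or more (3886 of 9174), 6.24% of nonsense-mediated decay transcripts (31 of 497) and 8.8% of transcripts typed as processed transcript (92 of 1046). The only transcript of a gene has an IsoPct of 100 by definition. Of the 3886 protein-coding transcripts, 3378 came from genes with several transcripts. The other 3623 retained-intron transcripts at that level had a median IsoPct of 14.3 and 15.7 in the 2 libraries.

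Among the members themselves, IsoPct reached 90 in both libraries for 7 and stayed under 60 in both for 21. Gm37423-201, 1 of the 7, is the only transcript of its gene, so its IsoPct of 100 was fixed in advance. In the 86 protein-coding hosts, all protein-coding transcripts together had a median IsoPct of 25.5 in replicate 1 and 21.6 in replicate 2, and all retained-intron transcripts together 69.4 and 74.3. In 29 of these hosts the protein-coding transcripts held under 20% of the TPM in both libraries. IsoPct was higher in replicate 2 for 57 members and lower for 35, with a median change of 2.34 percentage points. The largest difference toward replicate 2 was that of Ngrn-202 (53.9 and 84.2), and the largest toward replicate 1 that of Elmo3-205 (86.6 and 66.5).

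Membership rested on values close to the thresholds in some cases. Just inside the IsoPct threshold were Rfc2-204 (50.1 and 52.0), Nfkbie-202 (50.1 and 68.6) and Pdcl3-202 (58.2 and 50.4). Just outside it were H2-Q7-206 (49.97 and 59.0), Batf2-204 (52.9 and 49.1) and Ndufaf3-202 (48.7 and 68.2). For the TPM threshold, Mypop-202 (2.04 and 2.46 TPM), Gm4258-202 (2.05 and 2.37) and Slc52a2-202 (2.12 and 2.44) were just inside, and Gtf3a-202 (3.23 and 1.94), Tmem129-203 (2.11 and 1.92) and Gm49494-202 (1.92 and 2.54) just outside. Requiring both libraries mattered: 35 transcripts met the rule in replicate 1 only and 175 in replicate 2 only, so replicate 2 alone would have given 268 members and replicate 1 alone 128.

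Comparison with the gene models split the 93 members by what they keep. A whole intron of a protein-coding transcript lay inside an exon of 40 members. Counted by annotated intron, 31 kept 1, 7 kept 2 and 2 kept 3. Overlapping alternatives count separately here. The members with 3, Gramd1a-205 and Gm14391-205, and Pdzd11-203 with 2, therefore kept fewer separate introns than these counts. A further 23 members started inside an intron of the leading coding transcript, 17 ended inside one, and 1, 1700109H08Rik-205, did both. The 7 noncoding hosts have no coding intron to compare, and 5 members (Fam120b-202, Zfp369-205, Gar1-205, Zfp672-208 and Timm17a-204) fell in none of these classes. So 53 of the 93 kept no whole coding intron although their type is retained intron. Among the other retained-intron transcripts at 2 TPM or more, 34.4% kept one, against 43.0% of the members.

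**Figure D2:**
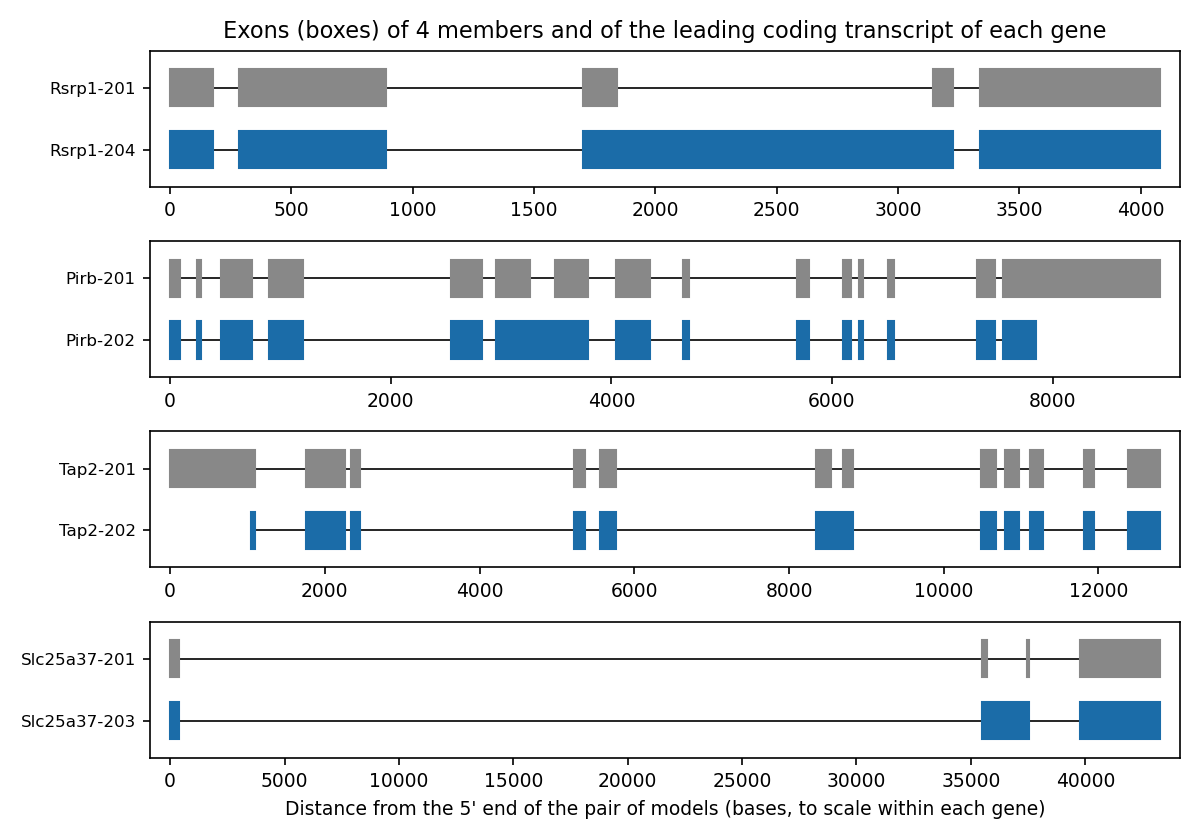
Exon models of 4 members (blue boxes) below the leading protein-coding transcript of the same gene (grey boxes), drawn to scale within each gene with the distance in bases from the 5′ end of the pair on the x axis; lines are introns. In each pair, 1 long blue exon covers 2 neighbouring grey exons and the intron between them, which is 1302 bases in Rsrp1, 227 in Pirb, 162 in Tap2 and 1756 in Slc25a37.

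The classes differed in length and in how much sequence they own. Members that keep a whole coding intron had a median length of 2899 bases, and the kept introns made up a median of 23.4% of the model. Those that end inside an intron ran a median of 642 bases into it (51 to 3662) and were 1132 bases long at the median. Members that start inside an intron were the shortest class, with a median of 775 bases, and only 9.72% of their bases at the median lay outside exons of every other transcript of the gene. Examples of the second class were Rbm15-202 (from the gene of an RNA-binding subunit of the m6A methylation complex), a single exon of 5967 bases that runs 3080 bases into the intron, and Ssu72-203 (from the gene of a phosphatase of the RNA polymerase II tail), which runs 1073 bases in. Examples of the third were Atp6v1d-202, of a vacuolar proton pump subunit, and Cycs-201, of cytochrome c.

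Over all members the length ran from 418 bases (Gar1-205) to 7982 bases (Tmed7-202), with a median of 1742 bases against 1337 for the other retained-intron transcripts at 2 TPM or more. The leading coding transcripts of the same hosts had a median of 2754 bases, and 56 members were shorter and 30 longer than theirs. Single-exon models were 20 of the 93 (21.5%), against 13.2% of the other retained-intron transcripts at that level.

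The 51 kept coding introns, from 40 members, were shorter at the median than the pooled coding introns of all hosts. That pool includes hosts that kept no whole coding intron, and no comparison within each gene was made. Their median length was 420 bases, from 68 bases in Mrps24-201 to 5125 bases in Gm14391-205, whereas all 710 coding introns of the hosts had a median of 808 bases and those of all genes at 2 TPM or more a median of 1372 bases. The 2134 introns kept by other retained-intron transcripts at that level had a median of 347 bases, so short introns were common to the type. In Gm14391, Gramd1a and Pdzd11 the counted introns are overlapping alternatives of one stretch and are not independent. Of the 51, 44 lay between coding exons and 7 in untranslated parts.

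**Figure D3:**
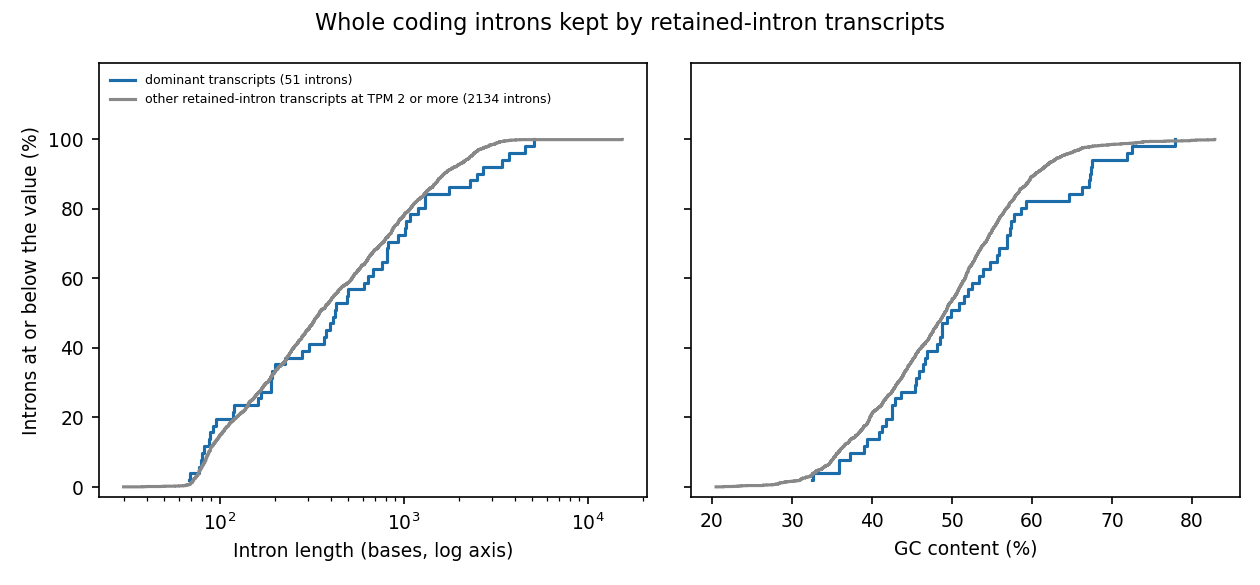
Cumulative share of introns (y axis, %) at or below a given length (left, bases, log axis) and GC content (right, %), for the 51 coding introns kept by members (blue) and the 2134 kept by other retained-intron transcripts at TPM 2 or more (grey). The blue and grey curves run close together over most of both ranges.

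GC content was a median of 49.8% in the kept introns, against 49.1% in those of the other retained-intron transcripts. It ran from 32.5% in the 492-base intron of Ncl-202 to 77.9% in the 68-base intron of Mrps24-201, from the gene of a protein of the small mitochondrial ribosomal subunit. Short and long introns differed. The 10 introns under 100 bases, among them those of Mrps26, Arsa, Cd83, Prelid1 and Slc52a2, had a median GC content of 66.7%, and the 14 of 1000 bases or more a median of 42.1%. In the other retained-intron transcripts the same length classes had medians of 55.8% and 43.3%. GT and AG bounded 49 of the 51 introns (96.1%, against 98.0%). The exceptions were GC-AG in 9030025P20Rik-202 and GT-TC in Ubp1-207. The median 5′ site matched 6 of the 9 letters in both sets. In the same 17-base window near the AG as above, the median pyrimidine share was 76.5% in members and 70.6% in the others.

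The ends of the models were compared for a polyadenylation hexamer, AATAAA or ATTAAA on the transcript's own strand, in the last 40 bases. It was there in 54 of the 93 members (58.1%; AATAAA in 42 and ATTAAA in 12), with a median of 17 bases after it. The share was 25.2% for the other retained-intron transcripts at 2 TPM or more and 21.4% for all retained-intron transcripts, and it was 54.5% for all 15615 transcripts at 2 TPM or more and 79.4% for dominant protein-coding transcripts. Within the members it was 29 of the 40 that keep a whole coding intron, 12 of the 23 that start inside one and 5 of the 17 that end inside one. Rsrp1-204, Pirb-202, Aif1-205 and Tap2-202 held a hexamer, and Vim-203, Tmem132a-203 and Ncl-202 did not. No match says only that these letters are not in this window.

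Because TPM divides by length, a short model can hold most of the TPM of a gene on few of its reads. The share of the gene's expected counts, which are not divided by length, was 50% or more in both libraries for 57 of the 93 members (61.3%) and under 50% in both for 27. For dominant protein-coding transcripts of genes with several transcripts, chosen by the same thresholds, it was 95.4%. Length separated the members: 3 of the 29 under 1000 bases and 54 of the 64 of 1000 bases or more held 50% of the counts in both libraries. Among dominant protein-coding transcripts under 1000 bases the share was 76.3% (196 of 257).

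**Figure D4:**
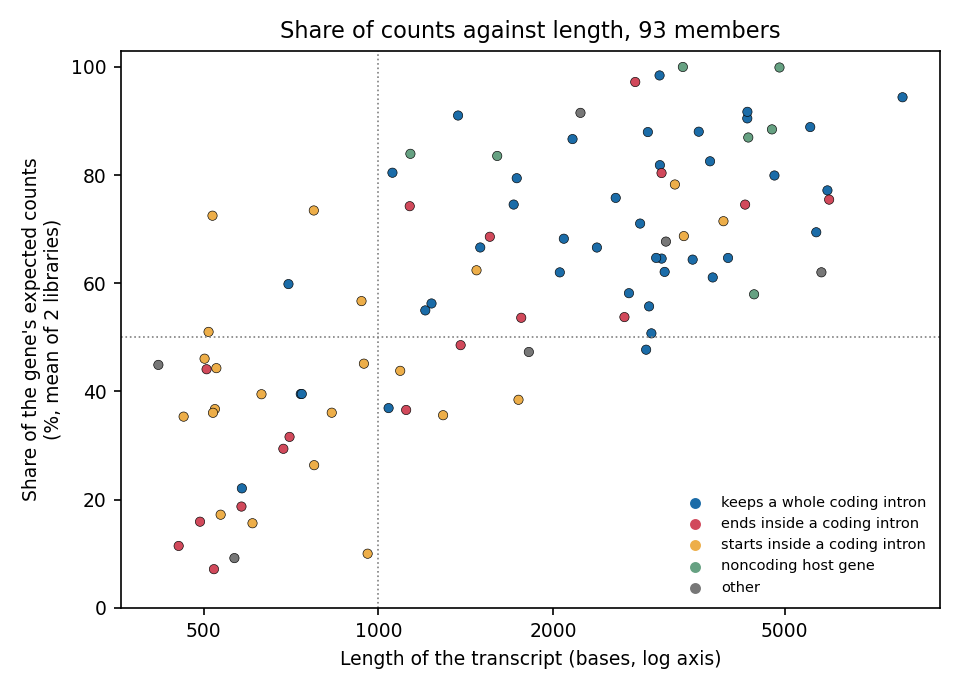
Share of the host gene's expected counts held by each member (y axis, %, mean of the 2 libraries) against the length of its transcript (x axis, bases, log axis), coloured by class; dotted lines mark 50% and 1000 bases, and 1700109H08Rik-205 is drawn as "other". Most points left of 1000 bases lie below 50%, and most points right of it lie above.

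Chic2-202 is the clearest case of a short model. This 521-base transcript had 5.43 and 9.38 TPM and 71.3% and 69.6% of the TPM of Chic2, on 50.2 and 58.2 counts, while the 9699-base coding transcript had 2.18 and 4.10 TPM on 620 and 797 counts. Its share of the gene's counts was 7.49% and 6.81%. Sap18-205 (13.0% and 9.87% of counts), Timm17a-204 (10.8% and 7.60%) and Zfp318-203 (8.87% and 11.2%) were alike in this. At the other end, Rsrp1-204 held 77.2% and 86.5% of the counts of its gene, Slc25a37-203 81.5% and 72.9%, Arglu1-204 84.5% and 91.5%, and Tmed7-202 91.8% and 97.0%. In all, 59 members had more counts than the leading coding transcript of their gene in both libraries.

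The quantifier's own uncertainty of the counts was small for most members. The posterior SD of the count was 2.92% and 3.10% of the count at the median and at most 20.8% (Gbp10-202) and 22.9% (Gar1-205). It describes only how reads were divided among annotated transcripts, and the lowest counts were 13.8 and 15.6, both of Gar1-205.

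The other deposited transcript table, made from the same reads without that alignment, gave a second estimate and not an independent measurement. Its tpm values were lower at the median. Over all 15615 transcripts at 2 TPM or more, the median of log2((tpm + 1)/(TPM + 1)) was -1.38 in replicate 1 and -0.61 in replicate 2. Over the members it was -1.51 and -0.63, so shares within a gene are compared here instead of levels.

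By share, the tables ranked the members alike more often than they gave the same majority. A member held 50% or more of its gene's tpm in both libraries in 60 of 93 cases (64.5%), against 60.5% of all dominant transcripts of genes with several transcripts (2230 of 3686) and 60.2% of the protein-coding ones. The 60 include Gm37423-201, whose gene has no other transcript. The members' share was thus near that of dominant transcripts in general. A member was the highest transcript of its gene in both libraries in 79 cases. A share above 50% is always the highest, so this count could not fall below the 60. The share was under 50% in both for 18 members and under 30% in both for 4. The median share was 55.9% and 59.3%, against a median IsoPct of 62.5 and 67.5, and the median absolute difference was 6.83 and 7.40 percentage points.

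**Figure D5:**
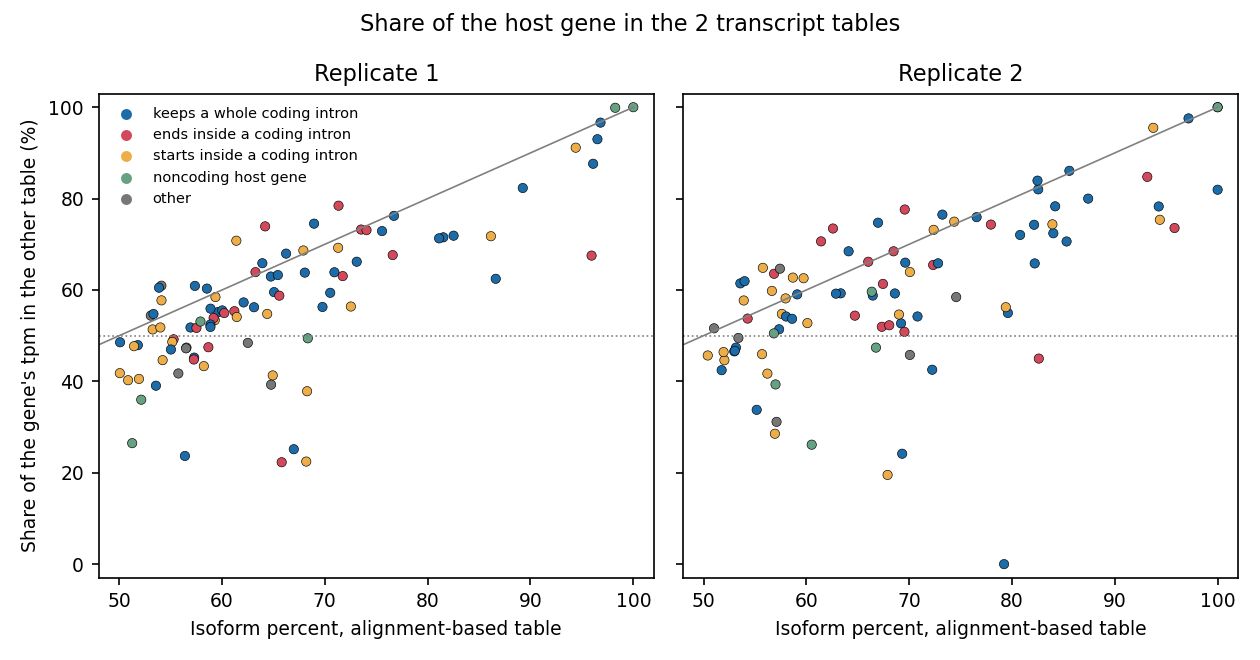
Share of the host gene's tpm in the other table (y axis, %) against isoform percent in the alignment-based table (x axis, %) for the 93 members in replicate 1 (left) and replicate 2 (right), coloured by class; the solid line marks equal shares and the dotted line 50%, and 1700109H08Rik-205 is drawn as "other". Most points lie on or below the solid line, and Mrps24-201 lies at 0 in replicate 2.

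Agreement differed by class. The share was 50% or more in both libraries in 30 of the 40 members that keep a whole coding intron, 13 of the 17 that end inside an intron, 12 of the 23 that start inside one, 2 of the 5 unclassed members and 3 of the 7 with a noncoding host. By length it was 16 of the 29 under 1000 bases and 44 of the 64 longer ones. Across members, Spearman's rho of TPM and tpm was 0.90 in both replicates, and that of IsoPct and the other table's share was 0.71 and 0.65. These describe transcripts measured in the same libraries and carry no test. Between the 2 libraries, rho was 0.89 for TPM and 0.60 for IsoPct.

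A few members stood apart between the tables. Gm43305-201, a single exon of 4901 bases from a noncoding gene, had 12.6 and 15.96 TPM but 37.8 and 111 tpm, the reverse of the usual order, and held 98.2% to 100% of its gene in both tables. Gm14391-205 had 4.0 and 7.82 TPM and 4.36 and 21.5 tpm. Ccdc58-206 (3.35 and 4.96 TPM, 2.47 and 9.56 tpm), Gm28417-203 and Zfp369-205 were next in this direction.

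In the opposite direction, Gbp10-202, from the gene of an interferon-induced guanylate-binding protein, had 6.05 and 9.75 TPM but 0.27 and 1.30 tpm. Its share went from 65.8% and 82.6% to 22.3% and 44.99%. Mrps24-201 had 3.59 and 2.49 TPM and 0.38 tpm in replicate 1, and was listed at 0 in replicate 2. Rps16-203, Rsrp1-204 (111 and 199 tpm) and A330023F24Rik-204 were the others with the lowest ratios. Brca2-204 (22.4% and 19.5%) and Kdelc1-203 (25.2% and 24.2%) kept an IsoPct near 68 in the alignment-based table but under 30% of their gene in the other.

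How far a share can be resolved depends on the bases that only the member has. The median member had 22.0% of its bases in no exon of another transcript of its gene. Of the 28 members with under 10% such bases, 16 held 50% of the gene in the other table in both libraries, and of the 27 with 50% or more, 19 did. No base of their own was found in 6 members, Pirb-202, Aif1-205, Gramd1a-205, Mdp1-202, Kdelc1-203 and Mrps24-201; they differ from other models by the combination of exons and not by sequence.

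Other genes overlapped some members. Exons of a gene on the opposite strand overlapped 26 members, and no source used here gives the strand setting of the counting, so their reads cannot be separated with certainty. Examples of long overlaps were 3069 bases of Rbm4b-206 with Gm37206 and 1088 bases of BE692007-202 with Ms4a6c. A gene on the same strand overlapped 4: Olfr56-205 with Ifi47, Mtcp1-204 with Cmc4, Mdp1-202 with Gm49299 and Kdelc1-203 with Gm29247. Olfr56-205 carries the symbol of an olfactory receptor, overlaps exons of the interferon-inducible gene Ifi47, and held 95.9% and 95.8% of Olfr56. Small RNA genes lay in exons of 3 members, Mir1894 in Ppp1r10-204, Mir7654 in Arglu1-204, and Mir29b-2 and Mir29c in A330023F24Rik-204. Leaving small RNA genes aside, 63 members had no overlap with exons of another gene, and 40 of these held 50% of their gene in the other table in both libraries. Members of gene families or genes with near-identical copies (Rps16, Rps20, Cycs, Dynlt1c, Gbp10 and the zinc finger genes) are also uncertain, since reads can be split among copies.

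The host genes were set beside 25 lists of gene functions, each limited to genes that have an annotated retained-intron transcript and 2 TPM or more in both libraries. Over all 5606 such genes, 1.66% were hosts. The lists took in 34 of the 93 hosts, 10 lists had no host, and no list had more than 4, so these counts are descriptions of small numbers.

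Lists of RNA processing genes, the textbook group for intron retention, gave 0 to 3 hosts each, beside the 1.66% over all genes. Among SR-type splicing regulators it was 1 of 21 (4.76%), Rsrp1. The spliceosome list, which by its name pattern also takes in RNA-binding Rbm genes, gave 3 of 76 (3.95%): Rbm15, Rbm4b and Snrpb2, the last a protein of the U2 small nuclear particle. Snrpb2-205 had 4.84 and 7.38 TPM. None of 19 hnRNP genes, 11 CLK, DYRK and SR protein kinase genes, 37 RNA helicase genes and 57 genes of RNA export, decay and 3′ end formation was a host. Arglu1, the gene of an arginine- and glutamate-rich splicing cofactor, was in none of the lists. Arglu1-204 had 17.9 and 27.3 TPM, held 73.1% and 85.6% of its gene and keeps a 2280-base intron. Nucleolin was the 1 host among 15 snoRNA host genes (6.67%).

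In the lists of translation and respiratory chain genes, the hosts were ribosomal protein genes and 1 respiratory chain gene. These lists do not take in every host with a mitochondrial product: Slc25a37, of mitoferrin, and Cycs, of cytochrome c, are outside them. Of 64 cytosolic ribosomal protein genes, 2 were hosts (3.1%, beside 1.66% over all genes): Rps16 (13.9 and 31.6 TPM) and Rps20 (22.7 and 13.8 TPM). Their members are 518 and 582 bases long. Of 47 mitochondrial ribosomal protein genes, 3 were hosts (6.38%): Mrps26 (6.95 and 6.25 TPM, IsoPct 96.1 and 94.3), Mrpl57 (5.27 and 5.52 TPM) and Mrps24. Cox7b, of cytochrome c oxidase, was the 1 host among the 55 listed respiratory chain genes (1.82%). No host was found among 29 aminoacyl-tRNA synthetase genes and 41 translation factor genes.

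Immune genes were represented in 3 lists. Of 56 interferon-stimulated genes, 3 were hosts (5.36%, beside 1.66% over all genes): Tap2, Psmb8 and Gbp10. Psmb8 encodes a catalytic subunit of the immunoproteasome. Psmb8-205 had 32.8 and 16.3 TPM and keeps a 190-base intron. Of 60 genes of TLR4, NF-κB and cytokine signalling, 3 were hosts (5%). Nfkbie, the gene of the NF-κB inhibitor IκBε, had its member at 7.65 and 7.10 TPM; Il17ra-203, of an interleukin-17 receptor chain, had 4.87 and 4.4 TPM, held 81.1% and 82.2% of its gene and keeps 2 introns; and Il11ra1-206, of the interleukin-11 receptor, had 10.5 and 13.5 TPM on a 523-base model.

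Of 73 lysosome and macrophage surface genes, 4 were hosts (5.48%, beside 1.66% over all genes): Pirb, Atp6v1d (16.2 and 30.8 TPM), Cd83 and Cd1d1. Cd83-202, from the gene of a surface protein of activated antigen-presenting cells, had 10.1 and 17.7 TPM, held 89.2% and 87.4% of its gene and keeps an intron of 95 bases. Cd1d1-203, from the gene of a lipid-presenting molecule, had 4.41 and 5.67 TPM.

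The remaining lists with hosts also stand beside 1.66% over all genes. They were vesicle traffic (4 of 121, 3.31%: Tmed7, Trappc4, Exoc3l4 and Sec22a) and zinc finger genes (4 of 115, 3.48%: Zfp369, Zfp318, Zfp672 and Zfp945). Solute carriers had 2 of 93 (2.15%: Slc25a37 and the riboflavin transporter gene Slc52a2). Signalling kinases had 1 of 77 (1.3%: Stk25), small GTPases and their regulators 1 of 105 (0.952%: Arhgap24), and DNA repair and cell cycle 1 of 132 (0.758%: Brca2). No host was among 154 ubiquitin ligase and deubiquitinase genes, 125 chromatin genes, 36 nuclear transport genes and 104 genes of lipid and carbohydrate metabolism.

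Between the libraries the median difference of the members was small, but the rule itself asked for both thresholds in both libraries. With log2((TPM + 1) of replicate 2 over replicate 1) centred on its median of 0.24 over all 15615 transcripts at 2 TPM or more, the members had a median of 0.05 (quartiles -0.30 and 0.41), with 51 higher and 42 lower in replicate 2. The sign depended on the scaling. With no centring the median was 0.29 and 66 members were higher, and with tpm of the other table, centred, it was 0.07 and 53 were higher. With TMM-scaled counts it was -0.045 and 42 were higher, and with centring on retained-intron transcripts it was -0.047. A difference above 2-fold upward was seen in 1 member (1.08%, against 3.7% of all such transcripts) and downward in 4 (4.3%, against 5.22%). The 15615 transcripts had no IsoPct threshold. The rule left out transcripts that met it in 1 library only, so the 2 sets are not alike in this. The other retained-intron transcripts had a median of 0.09. Members under 1000 bases had a median of -0.15 (12 of 29 higher) and longer ones 0.15 (39 of 64 higher). With 1 library on each side no test was possible.

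In the members with the lowest values in replicate 2 relative to replicate 1, the whole gene was lower and IsoPct was nearly the same. Tap2-202 had the lowest centred difference (-1.27), and its gene had 79.4 and 38.6 TPM at an IsoPct of 81.5 and 80.8. Psmb8-205 (-1.21) lies next to Tap2 on chromosome 17, and its gene had 54.7 and 28.1 TPM at an IsoPct of 60.02 and 58.0. Both overlap Gm20496 on the opposite strand. Aif1-205 (-1.08), Dok3-203 (-1.04; from the gene of an inhibitory adaptor of immune receptors) and Exoc3l4-211 (-0.97) also kept their IsoPct within 5 points of each other in the 2 libraries. Other estimates moved more for some. In the other table, Dok3-203 held 60.9% and 46.7%, Aif1-205 53.4% and 59.8%, and Exoc3l4-211 91.1% and 95.5%. Tap2-202 held 71.5% and 72.0% there, and Psmb8-205 55.5% and 54.2%. With IsoPct from posterior mean TPM, Exoc3l4-211 had 79.7 and 61.5, and the others named here stayed within 5 points.

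In the 5 members with the highest centred differences, the whole gene and IsoPct were both higher in replicate 2. Gm21188-202 (1.17) went from 55.3 to 67.4 in IsoPct while its gene had 58.0 and 129 TPM. Zfp945-203 (0.91) went from 65.4 to 69.6 while its gene had 4.89 and 11.92 TPM. Rps16-203 (0.89) went from 72.5 to 94.4 while its gene had 19.24 and 33.51 TPM. Tmed7-202 (0.88), from the gene of a cargo receptor of the early secretory pathway, went from 62.1 to 82.6, with 11.75 and 20.56 TPM for its gene. Rprd1a-202 (0.87), from the gene of a protein that binds the RNA polymerase II tail, went from 53.3 to 67.0, with 5.57 and 11.34 TPM for its gene. RNA input differed between the libraries, and its part in these differences cannot be told apart from that of the replicate.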

How the data were processed

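The authors deposited 2 transcript tables and 1 gene table for each of the 2 libraries, on mm10 with GENCODE M21 per the text files deposited with them. Per the file headers, the alignment-based deposited tables hold expected counts (estimated reads that need not be whole), TPM (divided by effective length and scaled to a common sum), isoform percent (a percent of the TPM of the gene) and the posterior SD of the count. The other deposited table, made from the reads directly, holds estimated counts and tpm. Column names are those of RSEM and kallisto. No source used here names the aligner, the quantifiers with their versions or the strand setting.

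Tables were joined by transcript identifier. Exons came from the M21 annotation and intron sequences from the M21 transcripts that contain them, since no genome was used here. GC content is therefore given only for introns kept by retained-intron transcripts, and not for all coding introns as had been planned. An intron of at least 30 bases was counted as kept when it lay in 1 exon with at least 3 exonic bases on each side. The leading coding transcript is the one with the highest mean TPM. A pseudocount of 1 was used for logs. All results are descriptions: there was 1 group, and the members were chosen by their values. The members and lists were chosen with earlier results of these data known.

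Named were the 15 members with the highest mean TPM, the 5 with the highest counts, the 5 most extreme in each direction between tables and between libraries, up to 4 per list, 3 transcripts on each side of each threshold, the longest and shortest intron, and members with small RNA genes. Other members named as examples were chosen after their values were seen. Alternatives were other thresholds, pseudocounts, scalings, tables and definitions, and each library alone; posterior mean TPM and centring on retained-intron transcripts were added after seeing the data. Rounded expected counts were TMM-scaled in R 4.3.3 (edgeR 4.0.16), and the rest was done in Python 3.11.15 (numpy 2.4.6, pandas 2.3.3). The scripts were tested on simulated data. Counting precision is limited by the depth of 21954179 and 17739520 expected counts.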

Additional observations from a re-analysis of the deposited data

How the results depend on the processing

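The number of members followed the thresholds: 453 at an IsoPct of 30, 19 at 70 and 7 at 90, and 53 at a TPM of 5 and 29 at 10, against 93. The rule applied to the other table gave 61 transcripts, 30 of them among the 93. There the level cut of 2 was put on tpm, which was lower than TPM at the median. By share alone, 60 of the 93 held 50% or more of their gene there in both libraries. Shares by expected counts gave 169, with 57 of the 93 among them. With 1 library the number was 128 to 268. TPM of 1 (130), posterior mean TPM (87, with 79 of the 93) and hosts with another transcript type (92) stayed within 1.5 times.

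The number of members with 50% of their gene in the other table was 60 and ranged from 53 to 87 over its alternatives, 64 to 71 with 1 library. The median log2 ratio of tpm to TPM was -1.08, -0.17 by counts scaled to a common total, -0.18 when centred on all transcripts, and -1.51 to -0.63 with 1 library. The median difference between libraries was 0.05. It was 0.29 with no centring, -0.045 with TMM-scaled counts and -0.047 when centred on retained-intron transcripts, so its sign was not fixed. Introns of any transcript gave a median GC of 48.6% and length of 423 bases, and 1 value for each member gave 51.8% and 393.5 bases, against 49.8% and 420. No paired analysis was possible because there was 1 group.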

Other observations

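Some abundant retained-intron transcripts did not meet the rule because of 1 library or stayed below it in both. H2-K1-215, a 457-base model from an MHC class I gene, had 871 and 1787 TPM with an IsoPct of 35.9 and 65.6, and a share of 24.9% and 60.6% in the other table. Ms4a7-205, from the gene of a macrophage membrane protein, had 93.3 and 204 TPM with an IsoPct of 39.5 and 64.1. Clec4e-205, from the gene of the lectin receptor Mincle, had 27.1 and 62.9 TPM, and its IsoPct was 25.5 and 60.5. Xdh-206, a 7775-base model from the xanthine dehydrogenase gene, had 79.1 and 95.4 TPM with an IsoPct of 39.2 and 51.1. These 4 met the rule in replicate 2 only, so their higher share there was fixed by the choice. Their level was also higher in replicate 2. That of H2-Q7-206, which likewise met the rule in replicate 2 only, was 45.1 and 42.0 TPM.

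Lilrb4a, the gene of an inhibitory receptor of myeloid cells, had 2 retained-intron transcripts at high level: Lilrb4a-206 with 266 and 576 TPM (IsoPct 38.4 and 49.8) and Lilrb4a-209 with 149 and 273 TPM (IsoPct 21.5 and 23.6). Fth1-208, from the ferritin heavy chain gene, had 269.7 and 226 TPM but an IsoPct of 11.5 and 13.6. Irf7-210, from the gene of an interferon regulatory factor, went the other way, with 238 and 99.5 TPM and an IsoPct of 44.5 and 39.9. These transcripts were named for their levels after the values were seen.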
